A study of Mus musculus with 48 samples.

Results

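The 7 genes described here are Vdr, Il21, Spp1, Gcg, Lgals7, Fam20a and Ifitm1, which were selected on their measured levels, for high expression in Tregs of mice given an attenuated IL-2 mutein together with an MHC II blocking antibody. They are 7 of the 53345 genes of the deposited matrices. Because the choice used those levels, the levels of the genes in Tregs under mutein with blockade are given as a description, with no test, and tests are given only for other comparisons. The data went against the choice for 1 of them: Spp1 was not particularly high in these Tregs.

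RNA was sequenced from splenic regulatory T cells (Tregs) of female C57BL/6 mice aged 8 to 12 weeks, as 32 libraries, and from conventional CD4 T cells (Tcons) of part of the same animals, as 16 libraries. Every mouse received 2 intraperitoneal doses of 500 µg of antibody, either an isotype control ("Isotype") or an antibody that blocks MHC class II ("Block"), on the day before and the day of 1 dose under the skin of either PBS or an IL-2 molecule (25 µg). The IL-2 molecules were human IL-2 fused to an Fc, in wild-type form (WT), as the attenuated mutein H16R, or as the more strongly attenuated mutein 3x, and spleens were taken on day 4. This gave 8 Treg groups of 4 mice and 8 Tcon groups of 2 mice, with 1 library per mouse and cell type. In isotype WT Tregs the labels give the same mouse number to 2 of the 4 libraries, called replicates 3a and 3b here. They are treated as separate mice, which the labels do not settle. Tregs were the CD25-bound fraction of a magnetic isolation kit and Tcons were the CD25- flow-through.

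Vdr encodes the vitamin D receptor, a nuclear receptor that activated T cells switch on. Il21 encodes interleukin-21, the cytokine of follicular helper T cells that acts on B cells. Spp1 encodes osteopontin, a secreted protein that binds integrins and CD44, and Gcg encodes proglucagon, the precursor of glucagon and glucagon-like peptides that is best known from pancreas and gut. Lgals7 encodes galectin-7, a sugar-binding protein of stratified epithelia. Fam20a encodes a pseudokinase that assists the secretory pathway kinase Fam20c. Ifitm1 encodes a small membrane protein of the interferon-induced IFITM family, which restricts virus entry.

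Il21, Gcg and Spp1 encode secreted proteins, and their promoters are shown because the 250 bases before the RefSeq start lie wholly outside the annotated gene (RefSeq, GRCm38.p6, all 5′ to 3′ on the strand of the gene). Capitals mark the core GGAAA, or its reverse complement TTTCC, which NFAT, a factor of activated T cells, binds. The Il21 window is at chr3:37232637-37232886 on the minus strand, the Gcg window at chr2:62483654-62483903 on the minus strand, and the first of the Spp1 windows at chr5:104434861-104435110 on the plus strand.
Il21: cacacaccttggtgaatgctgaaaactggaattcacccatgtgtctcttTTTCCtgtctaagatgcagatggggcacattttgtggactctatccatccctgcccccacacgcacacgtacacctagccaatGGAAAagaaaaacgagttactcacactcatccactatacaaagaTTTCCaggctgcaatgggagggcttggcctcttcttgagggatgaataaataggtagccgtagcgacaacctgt
Gcg: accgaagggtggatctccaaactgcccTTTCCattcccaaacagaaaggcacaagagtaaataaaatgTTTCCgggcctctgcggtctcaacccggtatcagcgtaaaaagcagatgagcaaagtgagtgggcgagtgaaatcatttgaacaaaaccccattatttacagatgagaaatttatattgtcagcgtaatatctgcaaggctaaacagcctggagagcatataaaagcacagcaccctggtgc
Spp1: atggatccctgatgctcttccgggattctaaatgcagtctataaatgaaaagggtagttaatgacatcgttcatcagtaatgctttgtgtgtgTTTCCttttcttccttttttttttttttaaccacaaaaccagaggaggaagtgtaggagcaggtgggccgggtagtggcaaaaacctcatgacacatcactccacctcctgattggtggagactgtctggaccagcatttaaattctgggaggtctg
The Il21 window holds the core 3 times, beginning 201, 118 and 74 bases before the start. In the Gcg window it begins 223 and 182 bases before the start, and in the Spp1 window 157 bases before it. Searched on both strands, GGAAA was found in windows of 5 of the 7 genes and in 55.6% of 32851 promoter windows of the same length, so its presence is common. TTCNNNGAA, the form that STAT factors such as the IL-2-activated STAT5 bind, was found in 0 of the 7 genes and in 7.02% of all windows. TGANTCA, the AP-1 form, was likewise found in 0 of 7, against 6.75% of all windows. No match says only that these letters are not in this window.

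Depth ranged from 18.28 to 51.24 M (1 M is 1000000) expected counts in Treg libraries and from 31.31 to 51.95 M in Tcon libraries, and the shallowest were those of isotype PBS Tregs. Levels are CPM, counts per 1000000 counts of the library. All 7 genes passed the filter on low counts in each fit, and all 7 also passed it on the 24 Treg libraries outside mutein with blockade. The smallest value among Tregs was 2 expected counts for Gcg in an isotype PBS library. Foxp3, the defining Treg factor, ranged from 692 to 1179 CPM over Treg libraries and from 48.4 to 186 CPM over Tcon libraries. The library of Treg Block WT replicate 1 stood apart with a macrophage marker sum of 702.5 CPM, against 10.8 to 28.9 CPM in the 8 Treg libraries under mutein with blockade. A second mouse stood apart in the genes of interest themselves: isotype WT replicate 2, whose Treg and Tcon libraries both held high Vdr, Il21, Spp1 and Fam20a.

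In Tregs under mutein with blockade, 6 of the 7 genes had a higher mean than in any other Treg group, and Spp1 did not. For Gcg, Lgals7, Fam20a and Ifitm1 all 8 of these libraries lay above all 24 other Treg libraries, and this held for 2.03% of the 12392 genes tested. The ratio of the mean over these 8 libraries to the mean over the other 24 was 18.0 for Ifitm1, 8.13 for Gcg, 6.61 for Lgals7, 6.47 for Fam20a, 5.40 for Il21, 4.53 for Vdr and 1.11 for Spp1. Il21 and Vdr each had 1 other library reaching into the range, isotype WT replicate 2. In Tregs given 3x with blockade, the levels per transcript length were 157 ± 52.6 FPKM (fragments per kilobase of transcript, scaled to depth; SD, n = 4) for Ifitm1, 84.6 ± 13.6 for Gcg, 67.5 ± 16.1 for Lgals7 and 21.9 ± 4.21 for Fam20a. On the same scale Il21 reached 9.86 ± 1.93, Vdr 9.09 ± 1.95 and Spp1 3.00 ± 1.70 FPKM. Gcg and Lgals7, best known from endocrine tissue and epithelium, thus came next after Ifitm1 in these T cells.

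**Figure D1:**
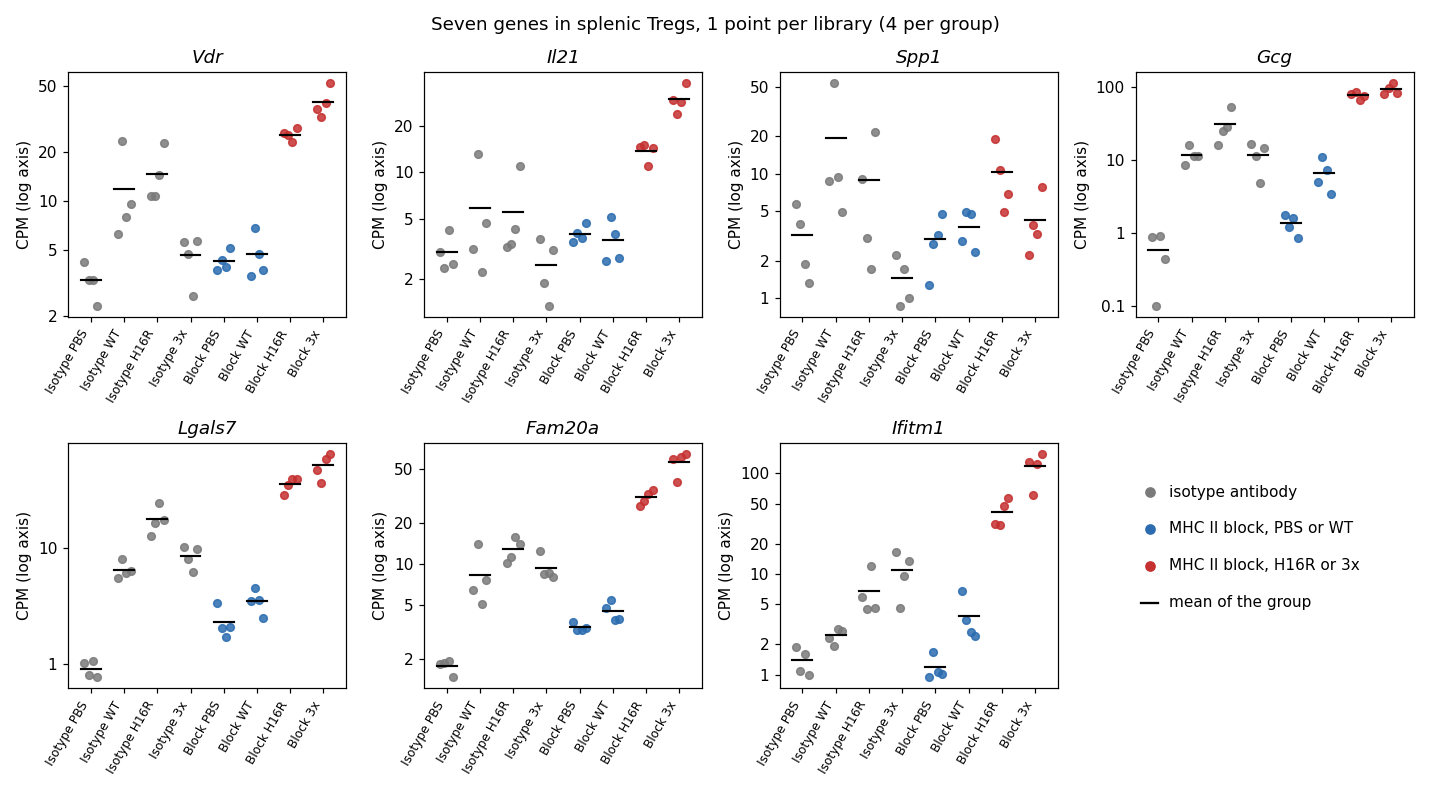
CPM (log axis) of the 7 genes in each of the 32 Treg libraries by group, with the group mean as a line. The 8 libraries of mice given H16R or 3x with MHC II block (red) lie above all others for Gcg, Lgals7, Fam20a and Ifitm1, and for Spp1 the highest library is isotype WT replicate 2 at 53.9 CPM.

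Vdr was lowest without IL-2 and highest with the muteins under blockade. With isotype antibody the 4 PBS libraries held 4.25, 3.32, 3.30 and 2.30 CPM and the 4 H16R libraries 10.7, 10.8, 14.3 and 22.4 CPM, with no overlap. The 4 WT libraries held 6.30, 23.2, 7.97 and 9.64 CPM, and the 4 libraries with 3x held 5.60, 4.79, 2.65 and 5.71 CPM, close to those with PBS. Under MHC II block the order of the muteins turned: H16R gave 25.9, 25.2, 22.9 and 27.7 CPM and 3x gave 36.1, 32.5, 39.4 and 52.3 CPM. The 4 libraries of Block WT, at 3.52 to 6.82 CPM, overlapped those of Block PBS at 3.78 to 5.16 CPM. The fitted log2 difference of block against isotype was 0.77 ± 0.29 (SE) with H16R and 3.06 ± 0.31 with 3x.

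Il21 was likewise highest with the muteins under blockade. With isotype antibody, PBS libraries held 3.04, 2.38, 4.198 and 2.52 CPM, H16R libraries 3.27, 3.43, 4.29 and 11.0 CPM, and 3x libraries 3.66, 1.89, 1.34 and 3.13 CPM. These groups overlapped, and 1 library of H16R and 1 of WT (13.2 CPM, the others at 2.24 to 4.68 CPM) stood well above the rest of their group. Under MHC II block the H16R libraries held 14.7, 15.2, 11.1 and 14.4 CPM and the 3x libraries 29.6, 24.1, 28.6 and 38.4 CPM. Block PBS (3.53 to 4.65 CPM) and Block WT (2.62 to 5.10 CPM) stayed at the level of isotype PBS. The log2 difference of block against isotype was 1.295 ± 0.39 (SE) with H16R and 3.54 ± 0.42 with 3x, the largest of the 7 genes with 3x. An antisense gene, Gm12534, overlaps Il21, and whether counting used the strand is not given in the sources used here.

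Spp1 varied widely between mice of a group. Isotype WT libraries held 8.71, 53.9, 9.50 and 4.96 CPM, and isotype H16R libraries 9.06, 3.04, 1.73 and 21.9 CPM. Under blockade H16R gave 18.9, 10.8, 4.96 and 6.90 CPM and 3x gave 2.20, 3.89, 3.27 and 7.77 CPM. Of the 24 other Treg libraries, 17 were at or above the lowest of these 8. Isotype 3x was the lowest group at 2.23, 0.86, 1.72 and 1.01 CPM, so that 3x with blockade stood 1.51 ± 0.73 (SE) above it on the log2 scale, while the difference with H16R was 0.19 ± 0.65. The library with the macrophage marker sum of 702.5 CPM held 2.88 CPM of Spp1, and the library with the highest Spp1 came from a group whose macrophage sums were 8.74 to 14.8 CPM. A transcript of uncertain class, Gm42793, overlaps Spp1 on the same strand.

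Gcg was below 1 CPM in isotype PBS Tregs and highest with the muteins under blockade. Isotype PBS Tregs held 0.87, 0.10, 0.90 and 0.44 CPM, from 30, 2, 22 and 8 expected counts. Isotype H16R Tregs held 16.1, 25.0, 28.0 and 53.4 CPM, and isotype 3x Tregs 16.6, 11.3, 4.87 and 14.3 CPM. All of these were above every PBS library of either antibody, of which the highest was 1.75 CPM. With blockade the H16R libraries reached 80.8, 84.7, 66.7 and 75.5 CPM and the 3x libraries 80.1, 96.0, 113 and 82.7 CPM, overlapping each other. The log2 difference of block against isotype was 1.297 ± 0.30 (SE) with H16R and 2.94 ± 0.32 with 3x.

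Lgals7 and Fam20a went with Gcg. Lgals7 went from 0.77 to 1.06 CPM in isotype PBS to 12.6 to 24.3 CPM in isotype H16R and 6.21 to 10.2 CPM in isotype 3x, and with blockade to 28.4, 34.4, 39.4 and 39.2 CPM with H16R and 47.1, 36.3, 58.3 and 63.8 CPM with 3x. Fam20a went from 1.48 to 1.96 CPM in isotype PBS to 10.2 to 15.8 CPM with H16R and 8.08 to 12.4 CPM with 3x, and with blockade to 26.5, 29.0, 32.6 and 35.2 CPM with H16R and 58.7, 40.2, 61.5 and 63.9 CPM with 3x. Both genes had every group of IL-2-treated mice above isotype PBS in every library. The same held for Block PBS, without IL-2, at 1.69 to 3.31 CPM of Lgals7 and 3.28 to 3.78 CPM of Fam20a. How many of all genes do so was not counted. With blockade and WT the 4 libraries held 2.49 to 4.48 CPM of Lgals7, overlapping Block PBS, and 3.86 to 5.46 CPM of Fam20a. Lgals7 is overlapped by the antisense gene Gm10648.

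Ifitm1 was low with PBS and WT and highest with 3x under blockade. Isotype WT Tregs held 1.95 to 2.86 CPM, against 0.98 to 1.88 CPM with PBS. Isotype H16R Tregs held 5.86, 4.53, 12.1 and 4.61 CPM and isotype 3x Tregs 16.4, 4.58, 9.48 and 13.4 CPM. With blockade H16R gave 31.4, 30.9, 47.7 and 56.8 CPM and 3x gave 131, 60.6, 125 and 155 CPM, with no overlap between the muteins. The library with the macrophage sum of 702.5 CPM held 6.85 CPM of Ifitm1, the highest of its group but below all 8 libraries of mutein with blockade.

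Between the muteins under blockade, 3x lay above H16R in every library for Vdr, Il21, Fam20a and Ifitm1, 4 of the 7 genes, against 12.9% of tested genes. The groups overlapped for Gcg, Lgals7 and Spp1. With isotype antibody the order of group means was the opposite for Vdr, Il21, Gcg, Lgals7 and Fam20a, with H16R above 3x, while for Spp1 H16R had the higher mean in both arms. In bulk RNA, fewer cells with a transcript and less transcript per cell cannot be told apart.

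Marker sums of other cells moved with the treatments. B or plasma cell markers summed to 586 to 1423 CPM in Tregs under mutein with blockade and to 105 to 467 CPM in Tregs with mutein and isotype antibody. Dendritic cell markers summed to 21.3 to 32.5 CPM and 5.91 to 9.73 CPM in the same groups, and NK cell markers to 20.1 to 32.6 CPM and 9.46 to 19.7 CPM. Macrophage sums were 10.8 to 28.9 CPM and 5.86 to 7.78 CPM, and neutrophil sums 1.38 to 14.1 CPM and 0.35 to 1.19 CPM. In Block PBS Tregs these sums were 664 to 2065 CPM for B or plasma cells, 19.8 to 32.6 CPM for dendritic cells, 26.8 to 37.2 CPM for NK cells, 11.6 to 17.2 CPM for macrophages and 1.06 to 8.83 CPM for neutrophils. Block 3x replicate 4, the highest library for Vdr, Il21, Lgals7, Fam20a and Ifitm1, had a CD8 T cell marker sum of 35.9 CPM, against 13.4 to 16.0 CPM in the other 3 of its group. The part of these cells in the differences between groups was not tested.

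The first test asked whether the genes responded to IL-2 without blockade, in isotype libraries that the choice of genes did not single out. The isotype H16R and 3x libraries were, though, the baseline of the block against isotype contrast used in that choice. P-values come from the quasi-likelihood test of edgeR, adjusted by Benjamini-Hochberg across the whole table, and a gene was called below 0.1. WT against PBS raised 6 of the 7 genes, where 52.2% of all genes were called and 26.0% were raised, and H16R against PBS raised 7 of 7, against 64.2% called and 31.4% raised. B or plasma cell sums were 1632 to 2358 CPM with PBS, 688 to 807 CPM with WT, 212 to 467 CPM with H16R and 105 to 202 CPM with 3x, while Treg marker sums were 3065 to 3682 CPM with PBS and 4503 to 5035 CPM with IL-2, and their part in these differences was not tested. The rise with H16R was 5.66 ± 0.51 (SE, log2) for Gcg (adjusted p = 2.68e-10), 4.32 ± 0.28 for Lgals7 (adjusted p = 5.48e-13) and 2.90 ± 0.27 for Fam20a (adjusted p = 4.18e-10). Vdr rose by 2.18 ± 0.34 (adjusted p = 3.7e-06) and Ifitm1 by 2.31 ± 0.48 (adjusted p = 0.000183). Il21 and Spp1 passed only just, at 0.91 ± 0.43 and 1.49 ± 0.71, with adjusted p = 0.0708 and 0.0709. Both calls were lost without H16R replicate 4, at log2 0.33 for Il21 (adjusted p = 0.516) and 0.53 for Spp1 (adjusted p = 0.533). Without PBS replicate 1, 2 or 4 the Il21 call was lost too (adjusted p = 0.117, 0.146 and 0.131), and without PBS replicate 3 or 4 that of Spp1 (adjusted p = 0.156 and 0.159).

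The 3x mutein split the set. Against PBS with isotype antibody it raised 4 of the 7 genes, where 63.6% of all genes were called and 31.3% raised: Gcg by 4.27 ± 0.54, Lgals7 by 3.25 ± 0.29, Fam20a by 2.43 ± 0.27 and Ifitm1 by 2.97 ± 0.47 (SE, log2), each with an adjusted p of 4.18e-06 or less. The other 3 did not pass, with 0.53 ± 0.35 for Vdr (adjusted p = 0.204), -0.23 ± 0.45 for Il21 (adjusted p = 0.683) and -1.12 ± 0.77 for Spp1 (adjusted p = 0.218). The Vdr difference passed without WT replicate 2 (adjusted p = 0.0826) or without 3x replicate 3 (adjusted p = 0.0855).

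Set directly against WT, 3x was higher for Ifitm1 (2.19 ± 0.38, adjusted p = 0.000123) and lower for Vdr (-1.304 ± 0.31, adjusted p = 0.00233), Il21 (-1.18 ± 0.41, adjusted p = 0.0327) and Spp1 (-3.68 ± 0.74, adjusted p = 0.000502), 4 calls in 7 against 34.7% of all genes. Gcg, Lgals7 and Fam20a gave 0.03 ± 0.32, 0.42 ± 0.21 and 0.20 ± 0.21 and did not pass. Without WT replicate 2, Spp1 kept a lower level at -2.36 (adjusted p = 0.009), Il21 did not (-0.39, adjusted p = 0.474; also lost without 3x replicate 3, at 0.109), and Fam20a came to pass at 0.58 (adjusted p = 0.021). Lgals7 passed without WT replicate 2, H16R replicate 3 or 3x replicate 3 (adjusted p = 0.076, 0.0975 and 0.0582). H16R against WT raised Gcg (1.42 ± 0.31, adjusted p = 0.00394), Lgals7 (1.495 ± 0.20, adjusted p = 8.95e-05), Fam20a (0.67 ± 0.21, adjusted p = 0.034) and Ifitm1 (1.52 ± 0.40, adjusted p = 0.0125), 4 of 7, where 18.6% of all genes were called and 8.87% raised. Fam20a lost this call without WT replicate 3a or H16R replicate 3 (adjusted p = 0.128 and 0.173) and Ifitm1 without H16R replicate 3 (adjusted p = 0.138), while Vdr gained one without WT replicate 2 (0.91, adjusted p = 0.029) and Spp1 a lower call without H16R replicate 4 (-2.04, adjusted p = 0.0521).

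With WT against PBS, Gcg rose by 4.24 ± 0.54, Lgals7 by 2.83 ± 0.30, Fam20a by 2.23 ± 0.27, Spp1 by 2.57 ± 0.71, Vdr by 1.83 ± 0.34 and Il21 by 0.95 ± 0.43 (SE, log2), the last with adjusted p = 0.0729. Ifitm1 gave 0.79 ± 0.54 (adjusted p = 0.245), and passed with DESeq2 and with limma on log2(FPKM + 0.1) (adjusted p = 0.0823 and 0.0544). WT replicate 2 carried part of this: without it Il21 was at 0.18 (adjusted p = 0.723) and Spp1 at 1.27 (adjusted p = 0.102). Il21 also lost its call without PBS replicate 1, 2 or 4 (adjusted p = 0.121, 0.151 and 0.133).

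The second test asked what MHC II block did without a mutein. In PBS mice, block raised 2 of the 7 genes, Lgals7 by 1.25 ± 0.34 (adjusted p = 0.0198) and Fam20a by 0.90 ± 0.30 (adjusted p = 0.054), where 14.1% of all genes were called and 6.00% raised. Fam20a lost this call without isotype PBS replicate 4 or Block PBS replicate 1 (adjusted p = 0.115 and 0.114). Gcg gave 1.07 ± 0.77 (adjusted p = 0.417), and passed with DESeq2 and with limma on log2(FPKM + 0.1) (adjusted p = 0.0867 and 0.0455). In mice given WT, block lowered 5 of the 7, where 33.6% of all genes were called and 15.3% lowered: Vdr fell by 1.31 ± 0.31, Spp1 by 2.36 ± 0.68, Gcg by 0.83 ± 0.34, Lgals7 by 0.89 ± 0.22 and Fam20a by 0.89 ± 0.22 (SE, log2), with adjusted p from 0.00225 to 0.0695. B or plasma cell sums were 1630 to 3700 CPM in Block WT and 688 to 807 CPM in isotype WT Tregs, and Treg marker sums 2821 to 3890 CPM and 4503 to 5035 CPM, and their part was not tested. Il21 gave -0.68 ± 0.40 (adjusted p = 0.227) and Ifitm1 0.58 ± 0.42 (adjusted p = 0.337). Spp1 no longer passed without WT replicate 2 (-1.07, adjusted p = 0.206), and Gcg lost its call without isotype WT replicate 2 or 3a or Block WT replicate 1 or 4 (adjusted p = 0.182, 0.102, 0.158 and 0.224), and also with DESeq2 and with limma on log2(FPKM + 0.1) (adjusted p = 0.103 and 0.107). Il21 passed without isotype WT replicate 3a (-0.95, adjusted p = 0.0862).

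Under blockade WT still raised 3 of the 7 genes over PBS, where 35.6% of all genes were called and 21.9% raised: Gcg by 2.35 ± 0.46 (adjusted p = 0.000433), Ifitm1 by 1.69 ± 0.51 (adjusted p = 0.0135) and Lgals7 by 0.69 ± 0.25 (adjusted p = 0.0428), the last lost without Block PBS replicate 3 or Block WT replicate 2 (adjusted p = 0.14 and 0.146). Fam20a passed without isotype WT replicate 2 (adjusted p = 0.0983). Marker sums in Block WT and Block PBS Tregs were 15.2 to 702.5 and 11.6 to 17.2 CPM for macrophages, 27.9 to 95.6 and 19.8 to 32.6 CPM for dendritic cells, 1630 to 3700 and 664 to 2065 CPM for B or plasma cells, and 37.0 to 53.1 and 26.8 to 37.2 CPM for NK cells. The Block WT library with the highest Ifitm1 (6.85 CPM) was the one with the highest of all 4 sums, and their part in these rises was not tested. The effect of WT was smaller with block than with isotype antibody for Lgals7 (interaction -2.14 ± 0.40, adjusted p = 0.000684), Fam20a (-1.79 ± 0.37, adjusted p = 0.00136) and Vdr (-1.65 ± 0.48, adjusted p = 0.0182), 3 of 7 where 19.7% of all genes were called and 7.98% in this direction. The other interactions were -1.90 ± 0.83 for Gcg, -2.21 ± 1.00 for Spp1, -1.04 ± 0.60 for Il21 and 0.91 ± 0.77 for Ifitm1, with adjusted p from 0.133 to 0.494. The Gcg interaction passed without isotype H16R replicate 4, isotype 3x replicate 3 or Block WT replicate 2 (adjusted p = 0.0831, 0.0863 and 0.0574), and that of Spp1 without isotype PBS replicate 1 or isotype WT replicate 3b (adjusted p = 0.0949 and 0.0876). With the muteins the log2 difference of block against isotype was above 0 for all 7 genes, and that contrast was used in choosing them.

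**Figure D2:**
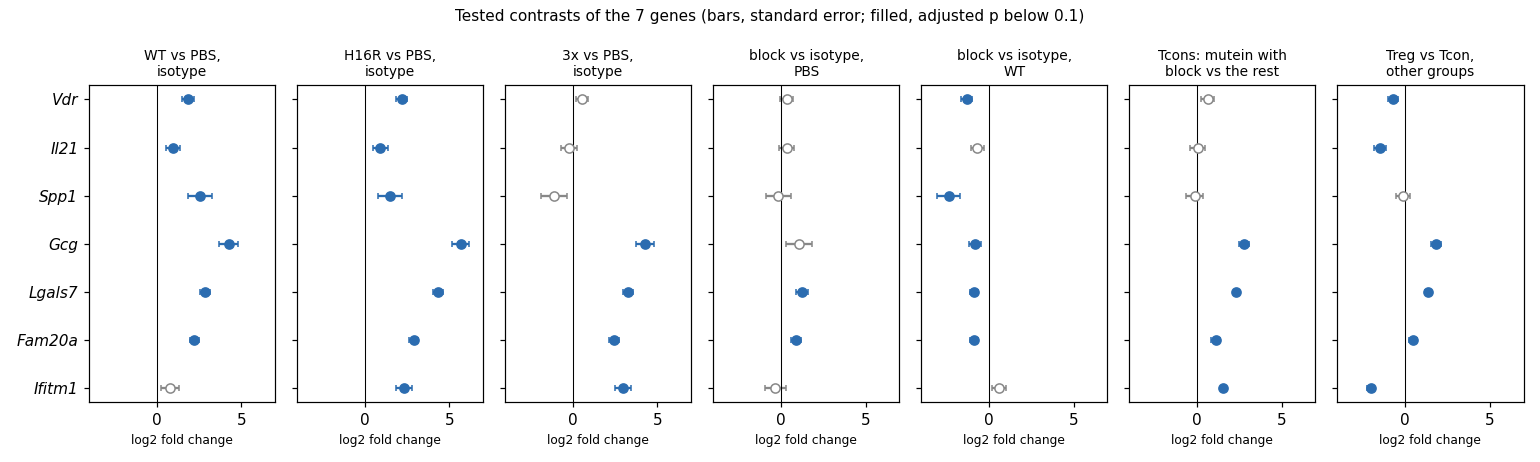
Log2 fold changes of the 7 genes in 7 of the tested contrasts, with standard errors as bars and filled points for an adjusted p below 0.1. WT raised 6 genes, H16R 7 and 3x 4 over PBS, and block against isotype with WT lowered 5.

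The third test was in Tcons, whose libraries the stated choice did not use. The Tcon libraries of mutein with blockade came, though, from mice whose Tregs were used in the choice. The Tcon fraction also held some Foxp3, as given below, so this test is not independent of the choice. Mutein with blockade against all other Tcons raised 4 of the 7 genes, where 36.6% of 12526 genes were called and 18.5% raised: Gcg by 2.80 ± 0.29 (adjusted p = 8.51e-05), Lgals7 by 2.33 ± 0.13 (adjusted p = 1.55e-06), Ifitm1 by 1.53 ± 0.12 (adjusted p = 1.26e-05) and Fam20a by 1.10 ± 0.29 (SE, log2, adjusted p = 0.018). The 3x mutein raised these 4 genes in isotype Tregs too. Vdr gave 0.63 ± 0.38 (adjusted p = 0.23), Il21 0.05 ± 0.45 and Spp1 -0.14 ± 0.52, and Vdr passed without the Tcon library of isotype WT replicate 2 (0.95, adjusted p = 0.011). For Gcg, Lgals7 and Ifitm1 the 4 libraries lay above all 12 others, which held for 1.02% of tested genes.

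Within H16R, block against isotype in Tcons raised Lgals7 (1.54 ± 0.24, adjusted p = 0.00458), Gcg (2.13 ± 0.55, adjusted p = 0.065) and Ifitm1 (0.85 ± 0.22, adjusted p = 0.0724), 3 of 7, where 4.19% of all genes were called and 3.46% raised. Gcg lost its call without any 1 of the H16R, Block PBS or Block 3x libraries (adjusted p from 0.104 to 0.406). Ifitm1 lost its call without isotype H16R or isotype 3x replicate 2, either Block PBS library or either Block H16R library (adjusted p from 0.101 to 0.533). Fam20a passed without either isotype WT library (adjusted p = 0.00408 and 0.0043). Within 3x it raised Lgals7 by 3.64 ± 0.29, Gcg by 3.60 ± 0.63, Ifitm1 by 2.07 ± 0.24 and Fam20a by 1.64 ± 0.55, 4 of 7, where 39.1% of all genes were called and 20.6% raised, with adjusted p from 2.86e-05 to 0.0428. Fam20a lost this call without isotype 3x replicate 2 (1.301, adjusted p = 0.226) or either Block 3x library (adjusted p = 0.136 and 0.112), and Vdr passed without any 1 of the isotype PBS or isotype WT libraries (adjusted p from 0.0115 to 0.0897).

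By library, Gcg in Tcons was 11.8 and 14.5 CPM with Block H16R and 9.33 and 9.40 CPM with Block 3x, against 0.16 to 5.10 CPM in the other 12. Ifitm1 was 40.1 and 38.3 CPM with Block H16R and 53.3 and 33.8 CPM with Block 3x, against 8.40 to 25.5 CPM. Vdr and Il21 had another pattern: the highest Tcons were those of Block PBS, without any IL-2, at 47.4 and 37.8 CPM for Vdr and 48.4 and 37.9 CPM for Il21. The next was isotype WT replicate 2, at 34.6 CPM for Vdr and 36.6 CPM for Il21, and mutein with blockade stood at 14.7 to 19.2 CPM and 9.82 to 13.1 CPM, the latter overlapping isotype PBS and isotype 3x. Tregs of the 2 Block PBS mice held 3.78 and 4.36 CPM of Vdr and 3.53 and 4.00 CPM of Il21. This difference was seen in the data and was not among the planned contrasts, so it has no test.

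**Figure D3:**
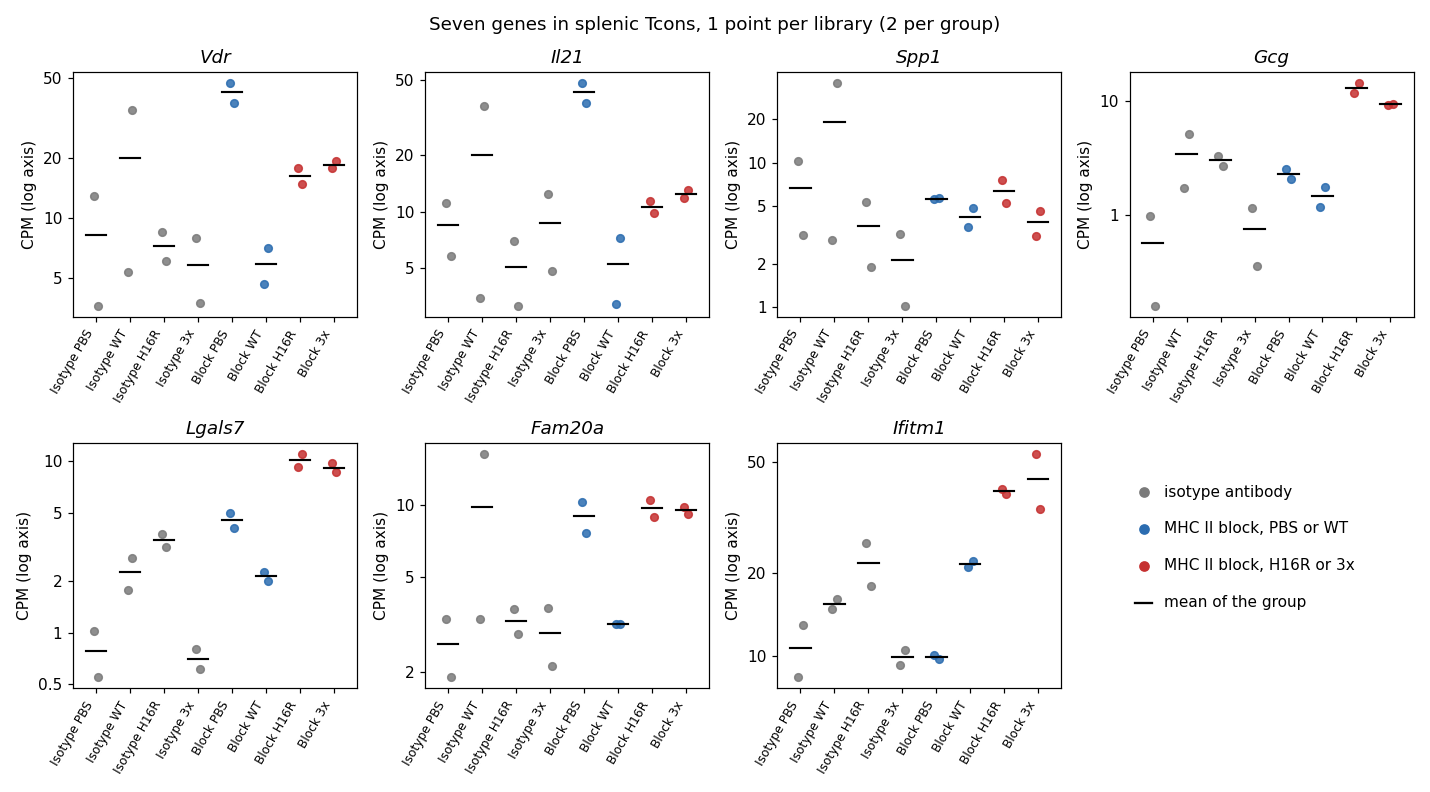
CPM (log axis) of the 7 genes in each of the 16 Tcon libraries by group, with the group mean as a line. The 4 libraries of mutein with blockade (red) are the highest for Gcg, Lgals7 and Ifitm1, and Block PBS is the highest group for Vdr and Il21.

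The Tcon fraction held some Foxp3. In the 4 mice given mutein with blockade, Foxp3 was 10.3 to 12.0 times higher in Tregs than in Tcons of the same mouse, and in the other 12 mice 5.25 to 14.3 times. Gcg was 5.85 to 10.2 times higher in Tregs of those 4 mice, Lgals7 3.09 to 4.88 times and Fam20a 2.53 to 5.97 times. In the mice given H16R the Gcg ratio was 6.84 and 5.85, where that of Foxp3 was 10.4 and 12.0. In those given 3x it was 8.58 and 10.2, where that of Foxp3 was 11.3 and 10.3. Ifitm1 was 0.78 to 2.45 times the Tcon level. Tcon Foxp3 under mutein with blockade (87.4 to 101 CPM) lay inside the range of the other Tcons (48.4 to 186 CPM). Neutrophil markers summed to 424 to 648 CPM in these Tcons and to 50.6 to 271 CPM in Tcons with isotype antibody, while Block WT Tcons had the highest sums, 792 to 999.6 CPM, with 20.9 and 22.1 CPM of Ifitm1. Macrophage sums were 88.0 to 146 CPM in Tcons under mutein with blockade and 20.9 to 43.0 CPM in Tcons with mutein and isotype antibody. Dendritic cell sums were 143.5 to 172 CPM and 52.2 to 62.1 CPM, while B or plasma cell and NK cell sums overlapped. The part of other cells in the Tcon differences was not tested.

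Outside mutein with blockade, Tregs were set against Tcons, as a mean over the groups, in the 12 mice that gave both fractions. Gcg was higher in Tregs by 1.83 ± 0.30 (adjusted p = 5.31e-05), Lgals7 by 1.34 ± 0.13 (adjusted p = 1.83e-07) and Fam20a by 0.47 ± 0.22 (SE, log2, adjusted p = 0.0671). Ifitm1 was lower in Tregs by 2.04 ± 0.19 (log2 -2.04, adjusted p = 1.1e-07), as were Il21 (log2 -1.46 ± 0.35, adjusted p = 0.00163) and Vdr (log2 -0.72 ± 0.30, adjusted p = 0.0429). Spp1 gave -0.11 ± 0.42 (adjusted p = 0.828). In these mice marker sums of other cells were mostly higher in Tcons than in Tregs: 50.6 to 999.6 against 0.57 to 166 CPM for neutrophils, 58.0 to 176 against 12.9 to 53.1 CPM for NK cells, 36.3 to 239 against 7.96 to 95.6 CPM for dendritic cells, and 10.4 to 30.8 against 2.39 to 6.31 CPM for platelets or megakaryocytes. The highest Treg sum of each was in Block WT replicate 1, and their part in the differences was not tested. The 6 calls in 7 stand beside 74.5% of all 12752 genes. The higher Treg means did not hold in mice given PBS. There the Treg to Tcon ratio was 0.59 to 0.90 for Gcg and 0.37 to 0.99 for Fam20a. For Lgals7 it was 0.997 and 1.44 with isotype PBS and 0.66 and 0.50 with Block PBS. Vdr lost its call without the Tcon library of isotype PBS replicate 1 or isotype WT replicate 2 (adjusted p = 0.119 and 0.141), and Fam20a without the Treg library of isotype WT replicate 2, isotype 3x replicate 1 or Block PBS replicate 1, or the Tcon library of replicate 2 of isotype PBS, H16R or 3x or of Block PBS (adjusted p from 0.102 to 0.159).

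Mouse by mouse, Il21 was higher in Tregs than in Tcons in 1 of the 12 mice and in 4 of the 4 given mutein with blockade. Vdr was higher in Tregs in 4 of 12 and in 4 of 4, and Ifitm1 in 1 of 12 and in 2 of 4, both of them given 3x. Gcg was higher in Tregs in 8 of 12, Lgals7 in 9 of 12 and Fam20a in 7 of 12, each also in 4 of 4. For Spp1 this was 6 of 12 and 2 of 4. The ratio of Treg to Tcon Il21 ran from 0.07 to 1.09 in the 12 mice and from 1.29 to 2.50 in the 4. For Vdr it ran from 0.08 to 1.77 and from 1.45 to 2.03. The change in the 4 mice comes from the high Treg levels that chose the genes and is given as a description.

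**Figure D4:**
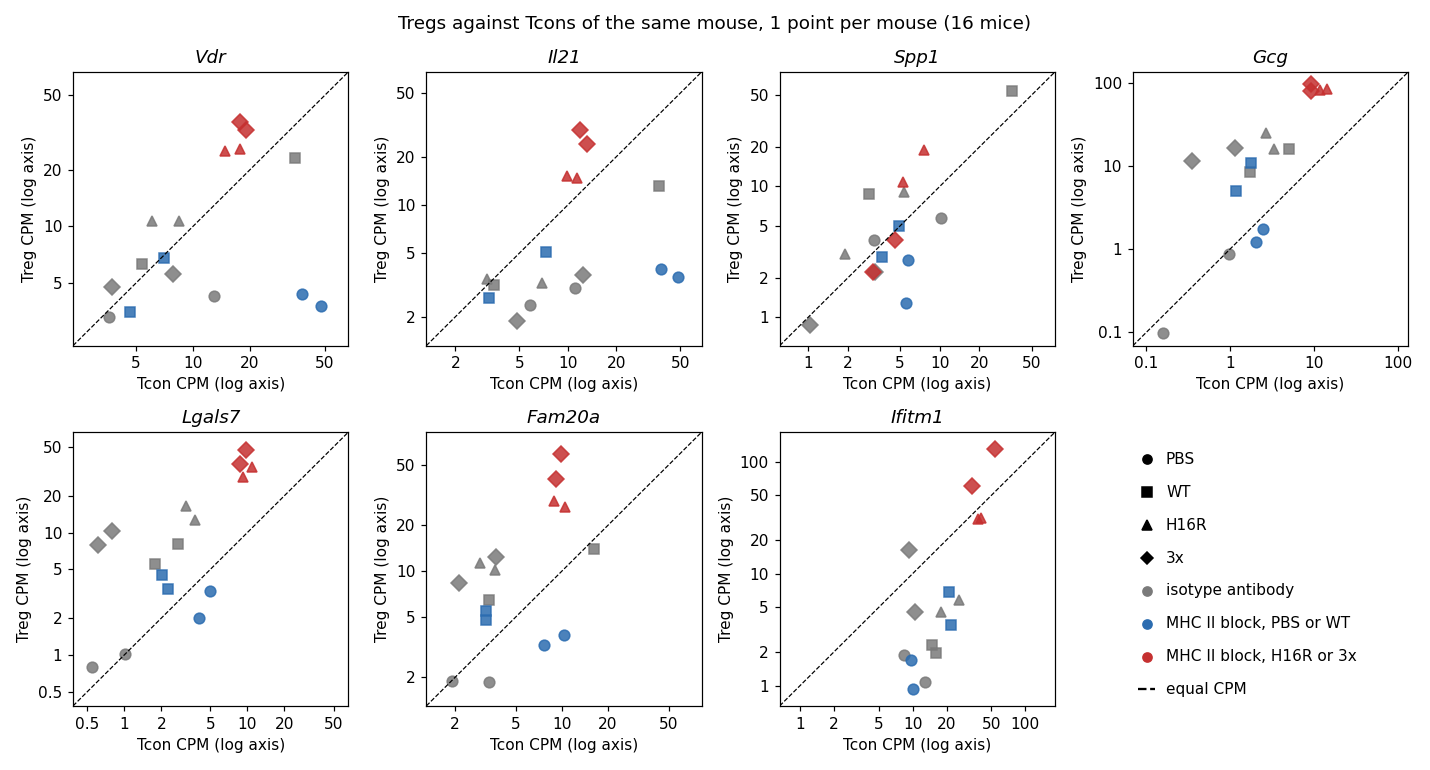
CPM of the 7 genes in Tregs against Tcons of the same mouse (both log axes), 1 point per mouse, with the dashed line at equal CPM. The 4 mice given mutein with MHC II block (red) lie above the line for Vdr, Il21, Gcg, Lgals7 and Fam20a, and the 2 Block PBS mice lie far to the right for Vdr and Il21.

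The pathway partners of the 7 genes were then tested for block against isotype in Tregs, in 8 lists of 78 genes of which 56 passed the filter. These lists were chosen with earlier results of these data known, and the same contrast was used in choosing the 7 genes. The counts are therefore not independent of the choice. With H16R 16 partners rose and 6 fell, 39.3% of those tested against 30.7% of all genes, where 15.4% of all genes rose and 15.2% fell. With 3x 25 rose and 10 fell, 62.5% against 54.1% of all genes, where 27.2% of all genes rose and 26.9% fell. Of the IFITM family beside Ifitm1, 4 of 4 tested members rose with H16R and 3 of 4 with 3x, with list medians of 1.401 and 2.16 (log2). Ifitm2 rose by 1.44 ± 0.26 and 2.10 ± 0.26 (adjusted p = 0.000333 and 2.44e-07), Ifitm3 by 1.36 ± 0.32 and 2.21 ± 0.32, and Ifitm6 by 1.88 ± 0.67 and 3.13 ± 0.62 (SE). The H16R call of Ifitm6 was lost without isotype H16R replicate 4, Block H16R replicate 3 or Block H16R replicate 4 (adjusted p = 0.129, 0.113 and 0.121), which leaves 3 of 4. Ifitm10 rose with H16R (1.03 ± 0.24) and gave 0.28 ± 0.24 with 3x (adjusted p = 0.351). Ifitm6 stayed low, at 1.99 to 6.89 CPM with Block 3x, and its highest library outside mutein with blockade was one of Block WT, at 3.87 CPM. Ifitm2 and Ifitm3 reached 103 ± 35.6 and 90.3 ± 21.4 CPM with Block 3x (SD, n = 4), from 23.3 ± 7.41 and 18.9 ± 6.70 CPM with isotype 3x.

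Among galectins, 2 of 5 tested rose with H16R, where 15.4% of all genes rose. With 3x, 2 rose and 2 fell, where 27.2% of all genes rose and 26.9% fell. Lgals3, the chimera-type galectin, rose by 1.19 ± 0.19 and 2.00 ± 0.19 (adjusted p = 7.21e-05 and 3.26e-09), and Lgals1 by 0.64 ± 0.14 and 0.95 ± 0.14. Lgals3 went from 40.3 ± 6.35 to 94.1 ± 14.2 CPM with H16R and from 45.2 ± 8.15 to 186 ± 40.1 CPM with 3x. The falls with 3x were small, -0.12 ± 0.04 for Lgals9 and -0.10 ± 0.05 for Lgals8, and Lgals4 did not pass with either mutein. Both falls were lost without TMM, without the low-count filter and with limma (adjusted p from 0.146 to 0.381), and that of Lgals8 also with DESeq2 (adjusted p = 0.103) and without replicate 3 or 4 of isotype 3x or of Block 3x (adjusted p from 0.118 to 0.196). Of the Fam20a paralogs, Fam20b (-0.04 ± 0.04 and 0.05 ± 0.04) and the secretory pathway kinase Fam20c (-0.13 ± 0.62 and -0.32 ± 0.72) did not pass.

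Of the regulators of Il21 and follicular helper genes, 7 of 17 rose and 1 fell with H16R, where 15.4% of all genes rose and 15.2% fell. With 3x, 9 rose and 1 fell, where 27.2% of all genes rose and 26.9% fell. Without isotype H16R replicate 1 the 7 rises with H16R became 3, with Cd40lg (adjusted p = 0.101), Il4, Il17a and Pdcd1 lost. The largest rise with 3x was that of Il4, the type 2 cytokine, by 2.74 ± 0.26 (adjusted p = 4.66e-09) from 2.32 ± 0.85 to 15.9 ± 4.64 CPM, against 0.74 ± 0.25 with H16R (adjusted p = 0.0334, and 0.105 without isotype H16R replicate 1). Pdcd1, encoding the inhibitory receptor PD-1, rose by 1.08 ± 0.11 with 3x and 0.27 ± 0.11 with H16R, the latter lost without isotype H16R replicate 1, 2 or 3 or Block H16R replicate 1, 3 or 4 (adjusted p from 0.105 to 0.203). Ifng, encoding interferon-γ, rose more with H16R, by 0.91 ± 0.11 against 0.67 ± 0.11, and the difference between the muteins was not tested. Il17a rose with H16R by 1.43 ± 0.58 (adjusted p = 0.0726) at 0.47 to 2.19 CPM. Without Block H16R replicate 3 it stood at 0.65 (adjusted p = 0.489), and the call was also lost without isotype H16R replicate 1, 3 or 4 and with limma (adjusted p from 0.128 to 0.185). The falls were Tox2 with H16R (-0.31 ± 0.13) and Nfatc2 with 3x (-0.18 ± 0.07). Tox2 lost its call without TMM, without the filter, with limma and without any 1 of 10 libraries, the most without isotype H16R replicate 4 (-0.18, adjusted p = 0.361), and Nfatc2 with limma (adjusted p = 0.118 and 0.114).

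In the IL-21 receptor list, 2 of 8 rose and 1 fell with H16R, beside 15.4% and 15.2% of all genes. With 3x, 6 rose and 1 fell, beside 27.2% and 26.9% of all genes. Without isotype H16R replicate 4 or Block H16R replicate 4, both rises with H16R, Jak3 and Il2rg, were lost. With 3x, Jak3 rose by 0.50 ± 0.06, Stat3, which carries the IL-21 signal, by 0.37 ± 0.05, and Il21r by 0.26 ± 0.06, while Jak1 fell by 0.27 ± 0.05. With H16R, Jak3 gave 0.13 ± 0.06 (adjusted p = 0.0972), a call lost without any 1 of 13 libraries (adjusted p up to 0.323). These changes were small beside the 3.54 of Il21 itself on the same log2 scale.

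In the vitamin D list, 1 of 10 rose and 2 fell with H16R, and 1 rose and 4 fell with 3x, which is near the share of all genes called with each mutein. The falls became 1 with H16R, where Ncoa2 lost its call without isotype H16R replicate 2 or 4, without Block H16R replicate 1, 3 or 4, without TMM and with limma, and became 2 with 3x, where Ncoa1 and Ncoa2 lost theirs without TMM (adjusted p = 0.11 and 0.138) and with limma. Rxra, the partner receptor of Vdr, rose by 0.32 ± 0.07 with 3x (adjusted p = 0.000323) and gave 0.10 ± 0.07 with H16R (adjusted p = 0.303). Cyp27a1, a vitamin D 25-hydroxylase also active in macrophages, rose with H16R by 2.39 ± 0.63 (adjusted p = 0.00837) from 0.18 ± 0.12 to 0.96 ± 0.33 CPM, and stood at 4.02 ± 3.98 CPM in Block WT. With limma on log2(FPKM + 1) it did not pass (adjusted p = 0.194). The corepressor Ncor1 fell by 0.26 ± 0.06 and 0.25 ± 0.06. Macrophage marker sums were 5.86 to 7.78 CPM in isotype H16R and 12.3 to 28.9 CPM in Block H16R, and their part in the Cyp27a1 and Ifitm6 differences was not tested.

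Of the osteopontin receptors, 0 of 8 rose and 2 fell with H16R, against 15.4% and 15.2% of all genes. With 3x, 3 rose and 2 fell, against 27.2% and 26.9% of all genes. The falls became 1 with 3x, where Itga4 lost its call without TMM, without the filter, with limma and without isotype 3x replicate 2, 3 or 4 or Block 3x replicate 1 or 3 (adjusted p from 0.101 to 0.166), and 1 with H16R, where Cd44 lost its call with limma (adjusted p = 0.11 and 0.103). The integrin subunits Itgb5, Itgb1 and Itgb3 rose with 3x by 0.88 ± 0.30, 0.75 ± 0.08 and 0.49 ± 0.09, and Itga4 fell with H16R by 0.40 ± 0.10. For Itgb5 the Block WT group had the widest spread, 3.88 to 20.4 CPM. In the proglucagon list 2 of 8 genes passed the filter, and 1 of them, Dpp4, which inactivates glucagon-like peptides, rose by 0.18 ± 0.06 with 3x (adjusted p = 0.107 without Block 3x replicate 4).

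**Figure D5:**
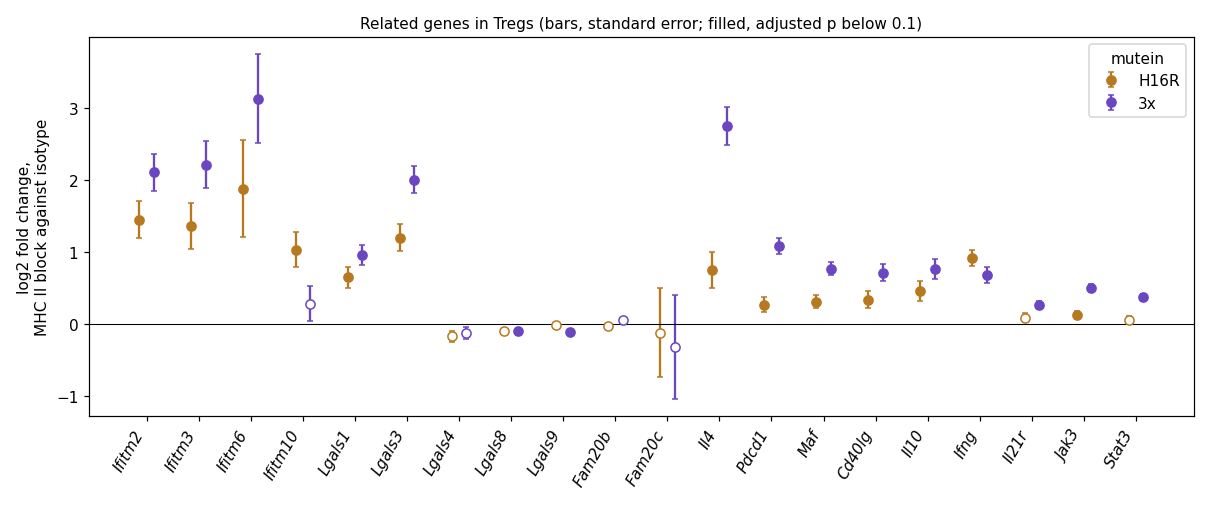
Log2 fold changes in Tregs for MHC II block against isotype with H16R and with 3x, for family members and partners of the 7 genes, with standard errors as bars and filled points for an adjusted p below 0.1. Ifitm2, Ifitm3 and Lgals3 rose with both muteins, and Il4 rose by 2.74 with 3x.

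Over Treg libraries, Gcg, Lgals7 and Fam20a were the closest of the 7 genes, and the others did not form a separate group. Correlations here are of log2 CPM over the 32 Treg libraries, which share treatment groups, and are descriptions. Lgals7 and Fam20a had r = 0.98, Gcg and Lgals7 0.97 and Gcg and Fam20a 0.94, and over the 24 libraries outside mutein with blockade these were 0.97, 0.95 and 0.92. Vdr and Il21 had r = 0.91 over 32 libraries, 0.73 over those 24 and 0.92 over the 16 Tcon libraries. Vdr was about as near to Fam20a, at 0.92, 0.76 and 0.90 over the same sets. Over the 24, Vdr had r = 0.75 with Gcg and with Lgals7. Fam20a and Ifitm1 had 0.93 over the 32 and 0.73 over the 24. Ifitm1 was far from Il21 outside mutein with blockade, with r = -0.12, against 0.75 over all 32. Spp1 was least like the others, with r from 0.08 with Ifitm1 to 0.52 with Vdr, and outside mutein with blockade it came nearest to Vdr and Il21, at 0.68 and 0.67.

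Of 12391 other tested genes, those most like Vdr were Igtp (r = 0.94), an interferon-induced GTPase, Il4 (0.94) and Lag3 (0.94), an inhibitory receptor. Lag3 went from 187 ± 22.7 to 419 ± 15.5 CPM with H16R and from 90.6 ± 13.0 to 359 ± 51.3 CPM with 3x (SD, n = 4). For Il21 they were Vdr (0.91), Stat3 (0.90) and Baz1a (0.90), and for Gcg they were Lgals7 (0.97), the type 2 cytokine Il13 (0.95) and Glrx (0.95). Il13 stood at 0.48 ± 0.26 CPM in isotype PBS, 5.14 ± 1.71 in isotype H16R and 19.4 ± 4.13 in Block 3x Tregs. Lgals7 was nearest to Fam20a (0.98), Tha1 (0.97) and AI467606 (0.97), and Fam20a to Lgals7 (0.98), Sla2 (0.97) and Elovl1 (0.97). Ifitm1 was nearest to Ifitm2 (0.98), Mtch1 (0.98) and Lgals3 (0.97), and Spp1 to Chst2 (0.78), Ints4 (0.77) and Insrr (0.75).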

How the data were processed

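RNA was sequenced as stranded mRNA in 32 Treg and 16 Tcon libraries. The authors aligned reads with OSA in Omicsoft Array Suite to mouse genome B38 and quantified genes with an RSEM implementation; the deposited expected counts are not normalized, and the deposited FPKM values are divided by length and depth. The authors also deposited DESeq2 (version 1.30.1) comparison tables of log2 fold changes and p-values, which were not used. Counts were rounded and fitted in R 4.3.3 with edgeR 4.0.16 (quasi-likelihood test, TMM, 8 groups within a cell type). Tregs against Tcons were fitted in 12 groups, without a term for the mouse. Tested genes were protein-coding (GENCODE vM21) and above 0.5 CPM in at least 4 libraries with no empty cell (29 genes were left out for one). P-values had Benjamini-Hochberg adjustment, with 0.1 as the threshold. CPM was computed from library totals. Alternatives used DESeq2 1.42.0, limma 3.58.1 on log2(FPKM + 1) and log2(FPKM + 0.1), no TMM, no filter, a replicate block, and each library left out. The edgeR steps were tested on simulated counts. Groups came from the sample labels. Treg and Tcon libraries of a mouse are matched by its label: the difference between the 2 mice of a group correlated between Tregs and Tcons at 0.18 to 0.53 over the 8 groups. The main test of Tregs against Tcons did not use this pairing, and the mouse was a block only in an alternative. Same-numbered mice of different groups are different animals. P-values measure the spread between mice.

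The 7 genes and the partner and marker lists were chosen with earlier results of these data known. Named are the 7 genes, per partner list up to 4 called genes with the largest change and uncalled paralogs, and per gene the 3 tested genes with the highest Pearson correlation of log2 CPM (prior count 2). Other genes named singly were chosen after their values were seen. Each promoter window is the 250 bases before a RefSeq start, and all 7 genes had one.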

Additional observations from a re-analysis of the deposited data

Results flagged for a closer look

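In 4 of the 56 sets of 4 Treg libraries (7 genes in 8 groups) 1 library lay far from the other 3 by Dixon's test at the 95% level, which chance gives in about 1 of 20 sets. They were Il21 in isotype H16R replicate 4 (11.0 CPM), Spp1 in isotype WT replicate 2 (53.9 CPM), Fam20a in isotype 3x replicate 1 (12.4 CPM) and Ifitm1 in Block PBS replicate 2 (1.69 CPM). Isotype WT replicate 2 was also the highest Treg library of its group for Vdr, Il21, Gcg, Lgals7 and Fam20a, and the Tcon library of that mouse held 34.6 CPM of Vdr, 36.6 CPM of Il21 and 35.5 CPM of Spp1.

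The effect of WT IL-2 over PBS differed between the antibody arms for Vdr (interaction -1.65, log2), Lgals7 (-2.14) and Fam20a (-1.79), each past the threshold of the interaction test and each smaller with MHC II block.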

How the results depend on the processing

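Counts of calls pooled over contrasts stayed within 1.5 times their value under every alternative run, but counts of single contrasts and lists did not. Of the 7 genes, those higher with block in H16R Tcons went from 3 to 1 without isotype H16R replicate 2, either Block PBS library or either Block H16R library. Those higher with H16R than WT went from 4 to 2 without H16R replicate 3, and those higher with 3x than WT from 1 to 3 without WT replicate 2. The genes lowered by block with WT went from 5 to 3 without isotype WT replicate 2, and those raised by block with PBS from 2 to 1 without isotype PBS replicate 4 or Block PBS replicate 1. Pooled, the 5 isotype contrasts gave 25 calls (21 to 26 under other settings, 22 to 26 with 1 library left out), the 4 contrasts of block without mutein 13 (13 to 14, and 12 to 14), Tregs against Tcons 6 (5 to 6, and 5 to 6) and the 3 Tcon contrasts 11 (11 to 12, and 9 to 14). Partner calls were 22 with H16R (17 to 22, and 16 to 23) and 35 with 3x (31 to 36, and 31 to 38). Of 546 single values of the 7 genes under other settings, 523 kept their side of the threshold, 12 lost and 11 gained a call, and 0 called values changed sign. With 1 library left out these numbers were 2446 of 2520, 52 and 22. With limma on log2(FPKM + 1) or log2(FPKM + 0.1), Il21 and Spp1 lost their rise with isotype H16R (adjusted p = 0.152 and 0.131, and 0.19 and 0.179), and Il21 its rise with isotype WT (0.179 and 0.188). Il21 also lost its lower level with 3x than WT with limma on log2(FPKM + 1) (0.108). The interaction of Gcg passed with DESeq2 and with both limma settings (adjusted p = 0.0108, 0.034 and 0.0108). In Tcons, Gcg lost its H16R call with limma on log2(FPKM + 0.1) (0.136), Fam20a gained one with DESeq2 (0.0517), and Vdr gained one with 3x without TMM, without the filter and with limma on log2(FPKM + 0.1) (0.0985, 0.0947 and 0.0964). Without TMM, Fam20a lost its Treg against Tcon call (0.104). The replicate block, fitted though same-numbered mice share only a number (median correlation of deviations 0.02, from -0.48 to 0.66), gave 24, 13, 11, 21 and 36 calls in the Treg and Tcon fits, and took from Spp1 the call with isotype H16R (adjusted p = 0.107). With the mouse as block, Tregs against Tcons kept 6 calls, with none of the 7 genes changing its call. The ratio of mutein with blockade to the other Tregs moved by less than the spread between mice with TMM-scaled CPM or FPKM. Gcg in isotype PBS rests on 2 to 30 expected counts a library, so its folds over PBS are imprecise.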
